A study of Mus musculus with 16 samples.

Results

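The 41 genes described here encode proteins that hold, prime, fuse and recycle synaptic vesicles. They were chosen by gene symbol for this function, and each symbol matched 1 Ensembl gene among the 51912 in the deposited table. They comprise 4 SNARE proteins, 5 synaptotagmins, 3 synapsins, 4 further vesicle membrane proteins, 9 priming factors and SNARE regulators, 7 active zone scaffolds, 3 genes of the Rab3 branch, 2 SNARE disassembly factors, 3 endocytosis genes and 1 vesicular glutamate transporter. RNA was measured in nuclei of the mouse colon, taken from the outer muscle layer with the myenteric plexus, the nerve network that drives gut movement. Nuclei carrying a green fluorescent envelope tag (EGFP+, neuronal) and nuclei without it (EGFP-, non-neuronal) were sorted apart by flow cytometry and sequenced. The 4 groups, with 4 libraries each, were neuronal nuclei after the aryl hydrocarbon receptor (AhR) agonist 3-methylcholanthrene, neuronal nuclei after corn oil, non-neuronal nuclei after the agonist, and non-neuronal nuclei after corn oil.

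All 16 libraries came from C57BL/6 mice held under specific pathogen-free conditions that carried the vector AAV9-CaMKII-EGFPKASH for 5 weeks, so the corn oil controls carried it as well. The agonist or corn oil was given into the peritoneum 14 hours before the nuclei were isolated. The labels give no dose, age, sex or number of mice behind each library, so the p-values measure only the spread between these libraries. The tag depends on infection by AAV9 and on the CaMKII promoter, and the share of enteric neurons it reached is not recorded in the labels. AhR is a transcription factor that is activated by its ligands and binds DNA, and the comparison of agonist with corn oil asks how its activation changes RNA in each nuclear population.

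At a nerve terminal, a vesicle filled with transmitter docks at the active zone, a protein scaffold that also gathers calcium channels. Syntaxin and SNAP-25 in the plasma membrane and synaptobrevin (VAMP) on the vesicle coil into a SNARE complex that draws the membranes together, synaptotagmin triggers fusion when calcium enters, and Munc13, complexin and tomosyn proteins set how readily this happens. NSF with SNAP proteins then takes the complex apart, and dynamin and amphiphysin help to retrieve the membrane. Enteric neurons use this machinery to release acetylcholine and other transmitters, and hormone-secreting cells of the gut use much of it too.

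Total counts per library ranged from 2663738 to 4902303. Mitochondrially encoded genes took 1.77 to 6.11% of the counts in neuronal libraries and 10.3 to 42.8% in non-neuronal libraries, with non-neuronal agonist libraries 1 and 2 above 30%. The sorted populations carried the markers of their labels: 20 neuron markers, none of them among the 41 genes, summed to 3048 to 4600.1 CPM in neuronal and 113 to 364 CPM in non-neuronal libraries after the agonist, and to 3135 to 3748 CPM in neuronal and 159.5 to 399 CPM in non-neuronal corn oil libraries. Levels are in CPM, counts scaled to library depth, with TMM normalization to the bulk of genes. All 8 smooth muscle markers were lower in neuronal nuclei under both treatments. Neuron marker RNA in the non-neuronal libraries was therefore measurable but low, with Rbfox3 and Nrsn1 at 0 counts in all 4 non-neuronal agonist libraries. Enteroendocrine markers, the 8 genes of hormone-secreting gut cells, summed to 0 to 7.96 CPM in neuronal and 6.63 to 70.7 CPM in non-neuronal libraries after the agonist, and to 1.60 to 5.10 CPM in neuronal and 8.51 to 36.7 CPM in non-neuronal corn oil libraries; their part in the results was not tested. Epithelium markers, 7 genes, summed to 4.53 to 34.1 CPM in neuronal and 1104 to 4845 CPM in non-neuronal libraries after the agonist, and to 16.6 to 95.6 CPM in neuronal and 1563 to 13804 CPM in non-neuronal corn oil libraries. The 4 markers of interstitial cells of Cajal, the pacemaker cells of the gut muscle, had sums that overlapped between populations, at 368 to 441 CPM in neuronal and 200.1 to 443 CPM in non-neuronal libraries after the agonist, and 435 to 534 CPM in neuronal and 225 to 573 CPM in non-neuronal corn oil libraries. Of these 4, Kit and Ano1 were called lower in neuronal nuclei under both treatments and Etv1 was called higher with corn oil. The part of these markers in the results was not tested. Neuronal agonist library 1 and non-neuronal corn oil library 4 each had the highest level of their group for 18 of the 41 genes. Neuronal agonist library 1 stood apart, with the fewest genes counted (17293). Where a call, a sign or a size past 1.5-fold changes without it, or without both libraries above 30%, the second value is given too.

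The release machinery was concentrated in the tagged nuclei. Summed over the 41 genes, RNA stood at 13958, 10568, 9840.0 and 8979 CPM in neuronal nuclei after the agonist, against 1426, 1902, 1924 and 1328 CPM in non-neuronal nuclei. With corn oil, the sum was 9495, 10964, 10443 and 10499 CPM in neuronal libraries, against 1283, 1377, 1348 and 2036 CPM in non-neuronal libraries. The sums did not overlap between populations under either treatment. In sorted nuclei, fewer nuclei of a type and less RNA per nucleus cannot be told apart.

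Gene by gene, 18 of the 40 genes that passed the filter on low counts were higher in neuronal than in non-neuronal nuclei after the agonist and none was lower, at an adjusted p under 0.05 in edgeR's quasi-likelihood test. Over all 14065 genes tested there, 6.67% were called higher and 6.97% lower. With corn oil, 32 of 40 were higher and none lower, beside 11.8% higher and 13.5% lower among all 15285 genes. Of the release genes, 17 were called under both treatments, 15 with corn oil and not the agonist, 1 (Cplx1) with the agonist and not corn oil, and 7 under neither; whether the population difference itself depends on treatment is tested further on. The median log2 difference, neuronal minus non-neuronal, was 2.20 over the release genes tested and -0.15 over all genes tested after the agonist, and 2.52 and -0.11 with corn oil. All 4 neuronal libraries were above all 4 non-neuronal ones for 24 of 40 genes after the agonist, where 12.6% of all genes showed this, and for 31 of 40 with corn oil, where 16.6% did. Rph3a did not pass the filter on low counts, so these counts do not cover it. Scaling by library size alone moved the median of all genes to 0.43 after the agonist and 0.11 with corn oil, and gave 1332 genes called higher and 649 lower after the agonist, in place of 938 and 980, and 2084 higher and 1679 lower with corn oil, in place of 1811 and 2065.

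**Figure D1:**
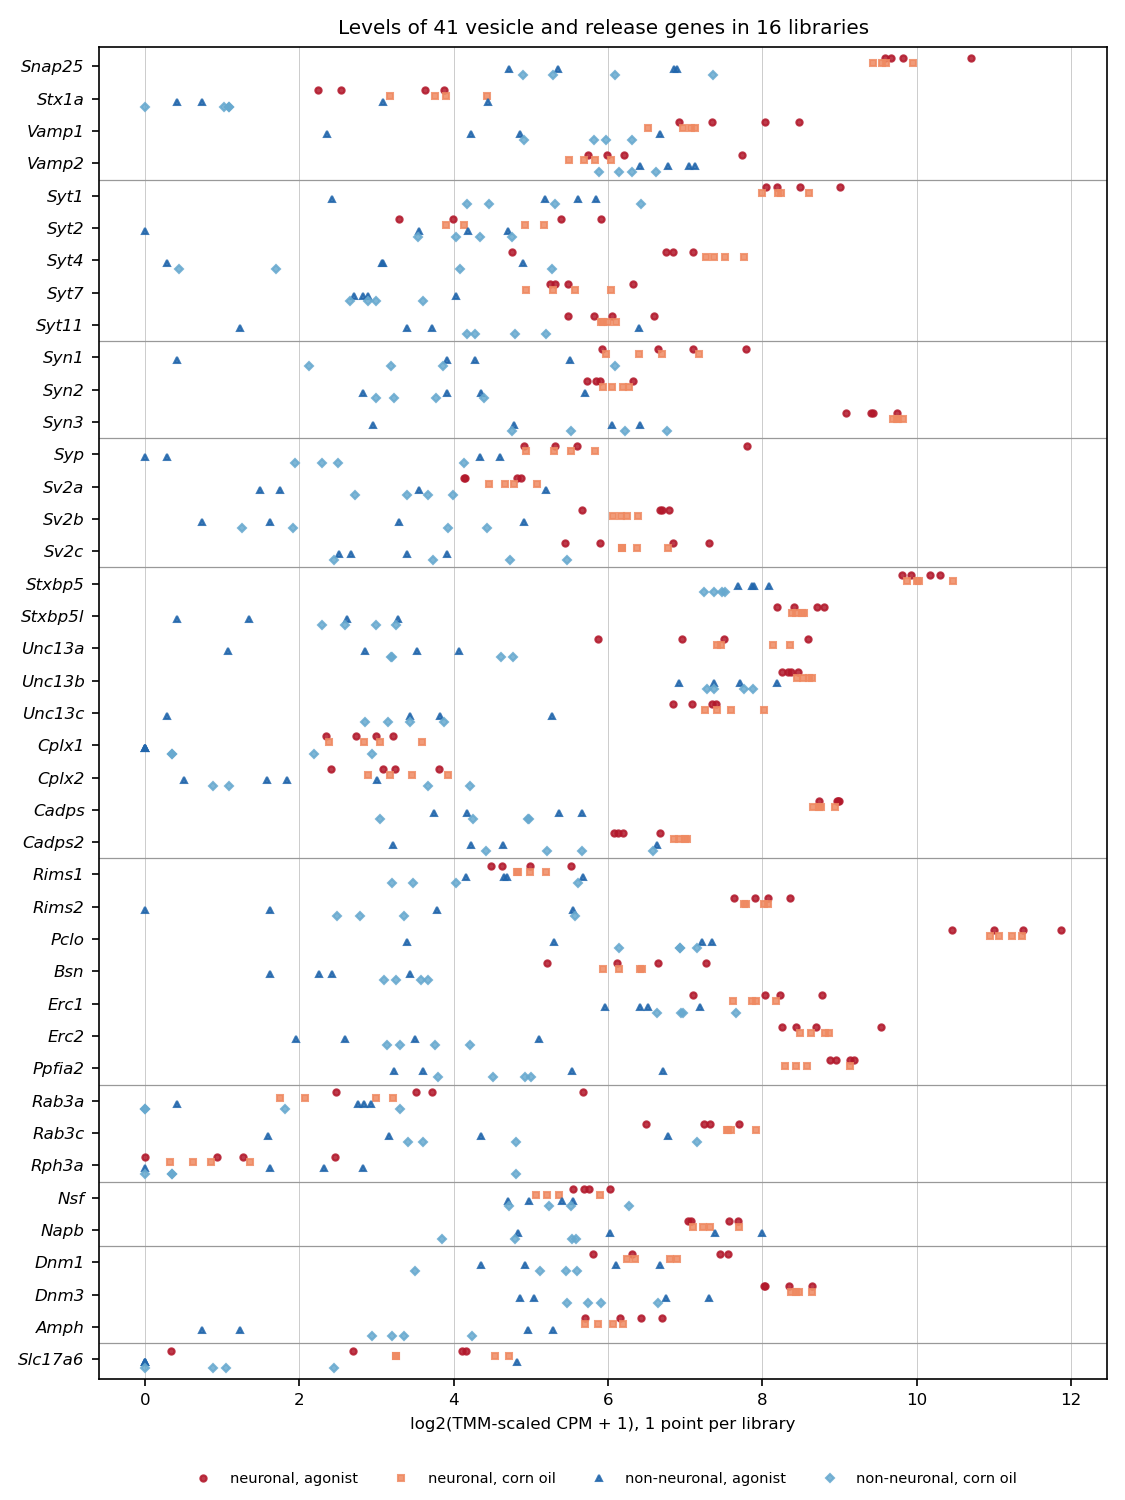
Level of each of the 41 genes in each of the 16 libraries, as log2(TMM-scaled CPM + 1) on the horizontal axis; genes run down the page by role, with lines between roles, and each point is 1 library, coloured and shaped by group. The neuronal points lie to the right of the non-neuronal ones for most genes, with Pclo farthest right at 1399.7 to 3749 CPM in neuronal libraries. They overlap them for Vamp2, Nsf, Rims1 and Rph3a, among others. Of the 40 genes tested, the populations overlapped for 16 after the agonist and for 9 with corn oil.

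Within neuronal nuclei the levels per length spanned a wide range. Over the 8 neuronal libraries, Snap25 was highest with a mean of 135 CPM per kb of merged exons, followed by Pclo at 106, Stxbp5 at 65.8, Syn3 at 63.3, Erc2 at 44.6, Stxbp5l at 42.7, Ppfia2 at 42.5, Syt1 at 39.9, Syt4 at 35.4 and Syn1 at 34.4 CPM per kb. This order depends on the length assumed for each gene. Of the 40 pairs of neighbours in this order over all 41 genes, none was apart in every neuronal library after the agonist and 9 were with corn oil. Among the 10 highest genes those apart with corn oil, by merged exons, were Pclo above Stxbp5 and Syn3 above Erc2. The longest transcript was 20084 bases for Pclo, 8825 for Stxbp5 and 4775 for Syn3, where merged exons took 22457, 16513 and 12282. By that length Stxbp5 and Syn3 would both pass Pclo in mean level over the 8 neuronal libraries. With corn oil, Pclo and Stxbp5 would then overlap, while Syn3 would stay above Erc2. Snap25 and Pclo overlapped: Snap25 had 153 ± 62.6 CPM per kb in neuronal agonist nuclei, where Pclo had 109.8 ± 44.5, and 118 ± 19.1 with corn oil, where Pclo had 102 ± 13.01 (SD, n = 4 each). At the low end stood Slc17a6, Cplx2 and Rph3a, with 2.40, 1.83 and 0.270 CPM per kb. Not scaled to length, 20 genes averaged over 100 CPM in each neuronal group and 4 did in each non-neuronal group. Relative spread between replicates was smaller in neuronal nuclei: the median coefficient of variation over the 41 genes was 35.2% after the agonist and 17.8% with corn oil, and in non-neuronal nuclei 85.7% after the agonist and 49.1% with corn oil. Most of these genes had lower levels in non-neuronal nuclei, and the part of low counts in this spread was not tested.

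Among the SNARE proteins, Snap25 and Vamp1 were called higher in neuronal nuclei under both treatments, Stx1a with corn oil, and Vamp2 under neither. SNAP-25 is the plasma membrane SNARE of neurons (Snap25, chr2:136713453-136782428, + strand of GRCm38). After the agonist, Snap25 had 1671, 905, 809 and 771 CPM in neuronal libraries, against 25.3, 118, 114 and 39.8 CPM in non-neuronal libraries. With corn oil, Snap25 had 690.2, 751, 774 and 988 CPM in neuronal libraries, against 67.1, 38.1, 28.8 and 163 CPM in non-neuronal libraries. The populations did not overlap, and the log2 difference was 3.65 (SE 0.50, adjusted p = 0.000311) after the agonist and 3.43 (SE 0.45, adjusted p = 0.000142) with corn oil. Vamp2 encodes synaptobrevin 2, a synaptic VAMP that many other secretory cells also use. After the agonist, Vamp2 had 212, 62.3, 52.5 and 72.8 CPM in neuronal libraries, against 84.2, 132, 139 and 109 CPM in non-neuronal libraries. With corn oil, Vamp2 had 44.1, 55.8, 50.7 and 64.7 CPM in neuronal libraries, against 58.2, 69.8, 78.6 and 97.2 CPM in non-neuronal libraries. After the agonist the non-neuronal libraries lay between neuronal library 1 and the other neuronal libraries, and with corn oil the groups overlapped. The log2 difference was -0.39 (SE 0.52, adjusted p = 0.708) after the agonist, where scaling by library size alone turned it to 0.10, and -0.51 (SE 0.30, adjusted p = 0.244) with corn oil. Vamp1, the other synaptobrevin, averaged 225 ± 106 CPM in neuronal and 37.8 ± 43.5 in non-neuronal nuclei after the agonist, and 122 ± 21.8 CPM in neuronal and 56.3 ± 20.5 in non-neuronal nuclei with corn oil (SD, n = 4 each). Its groups did not overlap, with log2 differences of 2.37 (SE 0.76, adjusted p = 0.0499) and 1.10 (SE 0.32, adjusted p = 0.0236). The agonist call for Vamp1 was lost when any one library other than neuronal agonist library 4 or non-neuronal agonist library 1 was left out (1.99 to 2.54), and the corn oil call without neuronal corn oil library 1, 2 or 3 (1.02 to 1.14).

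Stx1a encodes syntaxin 1A, the plasma membrane partner of SNAP-25, and was scarce. After the agonist, Stx1a had 11.4, 13.6, 3.73 and 4.80 CPM in neuronal libraries, against 0.337, 20.7, 7.45 and 0.663 CPM in non-neuronal libraries. With corn oil, Stx1a had 13.9, 20.5, 12.6 and 8.06 CPM in neuronal libraries, against 1.12, 0, 1.12 and 1.03 CPM in non-neuronal libraries. After the agonist the non-neuronal values ran from near 0 in libraries 1 and 4 to the highest of all in library 2, and the log2 difference was 0.028 (SE 1.28, adjusted p = 0.994); it was 1.06 without both libraries above 30% mitochondrial counts, and its sign changed when neuronal agonist library 1 or 2, or non-neuronal agonist library 1, 3 or 4, was left out (-0.38 to -0.0010), and with median-ratio scaling (-0.013). With corn oil the groups stood clear of each other, at a log2 difference of 3.98 (SE 0.90, adjusted p = 0.00508).

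All 5 synaptotagmins, membrane proteins with C2 domains that bind calcium or lipid, had positive differences, but 1 passed the test after the agonist and 4 with corn oil. Syt1 encodes the calcium sensor of fast release. After the agonist, Syt1 had 263, 291.9, 359 and 514 CPM in neuronal libraries, against 4.38, 56.3, 35.4 and 47.98 CPM in non-neuronal libraries. With corn oil, Syt1 had 293, 301, 254 and 387 CPM in neuronal libraries, against 38.6, 21.01, 17.1 and 85.3 CPM in non-neuronal libraries. Neuronal libraries were all above non-neuronal ones, at log2 differences of 3.17 (SE 0.62, adjusted p = 0.00345) after the agonist and 2.93 (SE 0.44, adjusted p = 0.000327) with corn oil. Syt4, a synaptotagmin found on dense-core vesicles and in the secretory pathway, is taken up again with the agonist response. Its log2 difference was 3.04 (SE 0.99, adjusted p = 0.0539) after the agonist, where neuronal library 1 lay within the range of the non-neuronal libraries, and 3.66 (SE 0.81, adjusted p = 0.00453) with corn oil. The Syt4 difference after the agonist passed the threshold without neuronal agonist library 1 (3.38) or non-neuronal agonist library 3 (4.03).

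Syt7, a high-affinity calcium sensor for slower release, averaged 49.6 ± 19.9 CPM in neuronal and 8.33 ± 4.67 in non-neuronal nuclei after the agonist, and 44.8 ± 15.1 CPM in neuronal and 7.47 ± 2.57 in non-neuronal nuclei with corn oil. Its libraries did not overlap, with log2 differences of 2.38 (SE 0.81, adjusted p = 0.0655) and 2.56 (SE 0.47, adjusted p = 0.00139), and it passed the threshold after the agonist without non-neuronal agonist library 2 (2.89). Syt11, which does not bind calcium, had a log2 difference of 1.08 (SE 0.95, adjusted p = 0.531) after the agonist and 1.34 (SE 0.36, adjusted p = 0.0143) with corn oil. One library decided the agonist value: Syt11 stood at 1.35, 83.2, 9.50 and 12.2 CPM in the non-neuronal agonist libraries, and without library 2 the log2 difference was 2.95 and passed the threshold. Syt2, the other fast calcium sensor, was called under neither treatment, with log2 differences of 1.11 (SE 1.14, adjusted p = 0.609) and 0.40 (SE 0.50, adjusted p = 0.623).

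The synapsins, which coat vesicles and hold them in the reserve pool, differed in how strongly they marked neuronal nuclei. Syn3 (synapsin III, chr10:86055125-86498896, - strand) was the most abundant of the 3. After the agonist, Syn3 had 853, 680.4, 693 and 543 CPM in neuronal libraries, against 6.74, 65.4, 26.5 and 84.03 CPM in non-neuronal libraries. With corn oil, Syn3 had 855, 906, 867 and 826 CPM in neuronal libraries, against 73.3, 25.99, 44.7 and 108 CPM in non-neuronal libraries. The lowest neuronal library was above the highest non-neuronal one by a wide margin, at log2 differences of 3.75 (SE 0.60, adjusted p = 0.000946) after the agonist and 3.77 (SE 0.36, adjusted p = 1.39e-05) with corn oil. Syn1 averaged 129 ± 68.6 CPM in neuronal and 19.3 ± 18.4 in non-neuronal nuclei after the agonist, and 98.1 ± 34.6 CPM in neuronal and 23.01 ± 29.6 in non-neuronal nuclei with corn oil. Its log2 difference was 2.62 (SE 0.88, adjusted p = 0.0634) after the agonist, called without non-neuronal agonist library 1 (2.20) or 3 (3.38), and 2.09 (SE 0.70, adjusted p = 0.0432) with corn oil, where the call was lost without neuronal corn oil library 1, 2 or 3 or non-neuronal corn oil library 1, 2 or 3 (1.78 to 2.20). Syn2 had log2 differences of 1.35 (SE 0.73, adjusted p = 0.27) and 2.50 (SE 0.42, adjusted p = 0.000793), with no overlap between populations in either.

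Of the other vesicle membrane proteins, Sv2b and Sv2c were called higher in neuronal nuclei under both treatments, Syp with corn oil, and Sv2a under neither. SV2 proteins are glycoproteins of the synaptic vesicle membrane. Sv2c averaged 92.98 ± 52.6 CPM in neuronal and 8.43 ± 4.35 in non-neuronal nuclei after the agonist, and 83.6 ± 17.8 CPM in neuronal and 21.4 ± 17.00 in non-neuronal nuclei with corn oil, with log2 differences of 3.31 (SE 0.73, adjusted p = 0.00699) and 1.95 (SE 0.54, adjusted p = 0.0172). For Sv2b the log2 differences were 3.07 (SE 0.95, adjusted p = 0.0427) after the agonist and 2.90 (SE 0.67, adjusted p = 0.00584) with corn oil; the agonist call held only with all libraries or without non-neuronal agonist library 3, and was lost without each other library in turn (2.68 to 3.31). Sv2a had log2 differences of 0.63 (SE 1.04, adjusted p = 0.768) and 1.31 (SE 0.51, adjusted p = 0.0775), and its libraries did not overlap with corn oil.

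Synaptophysin, the membrane protein most used to stain synaptic vesicles, is encoded by Syp. After the agonist, Syp had 223, 29.1, 47.4 and 38.7 CPM in neuronal libraries, against 0, 23.2, 19.3 and 0.221 CPM in non-neuronal libraries. With corn oil, Syp had 38.2, 45.01, 55.7 and 29.6 CPM in neuronal libraries, against 16.5, 2.85, 3.91 and 4.64 CPM in non-neuronal libraries. Neuronal libraries were above non-neuronal ones throughout, with neuronal agonist library 1 far above the rest of its group. The log2 difference was 2.82 (SE 1.26, adjusted p = 0.169) after the agonist, which did not pass the test, and 2.56 (SE 0.60, adjusted p = 0.00638) with corn oil.

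Of the 9 priming factors and SNARE regulators, 6 were called higher in neuronal nuclei after the agonist and 7 with corn oil. Stxbp5 and Stxbp5l encode tomosyns, which occupy syntaxin and SNAP-25 and so hold back priming. Stxbp5l (chr16:37114942-37384962, - strand) was low outside tagged nuclei. After the agonist, Stxbp5l had 339, 291, 445 and 416 CPM in neuronal libraries, against 0.337, 8.69, 5.14 and 1.55 CPM in non-neuronal libraries. With corn oil, Stxbp5l had 346, 372, 334 and 365 CPM in neuronal libraries, against 5.04, 8.55, 3.91 and 6.96 CPM in non-neuronal libraries. The log2 difference was 6.44 (SE 0.76, adjusted p = 0.000115) after the agonist and 5.84 (SE 0.31, adjusted p = 8.14e-07) with corn oil, and no libraries overlapped. Stxbp5 (chr10:9755547-9901079, - strand) was abundant on both sides. After the agonist, Stxbp5 had 975, 893, 1152 and 1259 CPM in neuronal libraries, against 270.1, 233, 236 and 204 CPM in non-neuronal libraries. With corn oil, Stxbp5 had 1045, 1021, 937 and 1413 CPM in neuronal libraries, against 182, 165, 150.4 and 178 CPM in non-neuronal libraries. It too separated the populations in full, at smaller log2 differences of 2.02 (SE 0.30, adjusted p = 0.000531) and 2.69 (SE 0.20, adjusted p = 2.71e-06).

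Munc13 proteins open syntaxin for priming, and their 3 genes behaved unequally. After the agonist, Unc13a had 383, 180.2, 124 and 57.6 CPM in neuronal libraries, against 15.8, 6.21, 10.5 and 1.11 CPM in non-neuronal libraries. With corn oil, Unc13a had 176, 281, 326 and 170.1 CPM in neuronal libraries, against 8.11, 8.19, 23.5 and 26.3 CPM in non-neuronal libraries. All neuronal libraries were above all non-neuronal ones, although they spread widely after the agonist, and the log2 differences were 4.27 (SE 0.82, adjusted p = 0.00296) and 3.83 (SE 0.44, adjusted p = 4.87e-05). Unc13c reached log2 differences of 3.07 (SE 0.91, adjusted p = 0.0357) and 4.33 (SE 0.35, adjusted p = 4.49e-06); its agonist call was lost without neuronal agonist library 1, 2 or 3 or non-neuronal agonist library 1 or 3 (2.91 to 3.14). Unc13b was high in non-neuronal nuclei as well, averaging 328 ± 20.3 CPM in neuronal and 197 ± 73.2 in non-neuronal nuclei after the agonist, and 375 ± 22.9 CPM in neuronal and 193 ± 39.1 in non-neuronal nuclei with corn oil. Its populations did not overlap, yet the log2 differences were 0.57 (SE 0.37, adjusted p = 0.371) and 0.95 (SE 0.20, adjusted p = 0.00364), the second of which was called.

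CAPS proteins prime dense-core vesicles. Cadps (CAPS1) had log2 differences of 3.87 (SE 0.49, adjusted p = 0.000166) and 4.32 (SE 0.40, adjusted p = 1.21e-05), with means of 485 ± 39.3 CPM in neuronal and 29.8 ± 17.9 in non-neuronal nuclei after the agonist, and 438 ± 37.7 CPM in neuronal and 21.5 ± 11.2 in non-neuronal nuclei with corn oil. For Cadps2 (CAPS2) the log2 differences were 0.90 (SE 0.74, adjusted p = 0.496) and 1.26 (SE 0.41, adjusted p = 0.0353); the corn oil call was lost without each library in turn except non-neuronal corn oil library 2 (1.02 to 1.35). Complexins clamp and then promote fusion of the assembled SNARE complex, and both their genes were scarce. After the agonist, Cplx1 had 6.97, 4.09, 8.25 and 5.65 CPM in neuronal libraries, against 0, 0, 0 and 0 CPM in non-neuronal libraries. With corn oil, Cplx1 had 6.15, 4.21, 7.28 and 11.02 CPM in neuronal libraries, against 0.280, 3.56, 0.280 and 6.70 CPM in non-neuronal libraries. Because the non-neuronal agonist group had 0 counts, Cplx1 is given as a bound: it was at least 28.4-fold higher in neuronal agonist nuclei, taking 3 counts over the group as the floor, and the test called it (adjusted p = 0.0149); the median over the release genes was the same with Cplx1 at this bound. With corn oil its groups overlapped, at a log2 difference of 1.39 (SE 1.00, adjusted p = 0.354). Cplx2 was called under neither treatment, with log2 differences of 1.28 (SE 1.17, adjusted p = 0.557) and 0.30 (SE 0.90, adjusted p = 0.852), the second of which turned negative without non-neuronal corn oil library 1 (-0.048) or 3 (-0.026).

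Active zone scaffolds included the gene with the most counts among the 41, Pclo (chr5:14514918-14863459, + strand), which encodes piccolo, a very large protein that organises the release site. After the agonist, Pclo had 3749, 2669, 2048 and 1399.7 CPM in neuronal libraries, against 38.4, 162, 148 and 9.51 CPM in non-neuronal libraries. With corn oil, Pclo had 1985, 2645, 2415 and 2143 CPM in neuronal libraries, against 122, 141, 69.6 and 121 CPM in non-neuronal libraries. Pclo was higher in every neuronal library than in any non-neuronal one, at log2 differences of 4.63 (SE 0.72, adjusted p = 0.00109) and 4.32 (SE 0.25, adjusted p = 8.14e-07). Its share of all counts for the 41 genes was 26.9, 25.3, 20.8 and 15.6% in the neuronal agonist libraries, against 2.69, 8.51, 7.68 and 0.716% in the non-neuronal agonist libraries. With corn oil that share was 20.9, 24.1, 23.1 and 20.4% in neuronal libraries, against 9.49, 10.2, 5.16 and 5.94% in non-neuronal libraries. Bsn, for the related giant scaffold bassoon, had log2 differences of 3.96 (SE 0.81, adjusted p = 0.00446) and 2.93 (SE 0.37, adjusted p = 0.000105).

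ELKS proteins and liprins link the active zone to the membrane and to RIM. After the agonist, Erc2 had 741, 412, 345 and 304 CPM in neuronal libraries, against 5.05, 10.3, 33.4 and 2.87 CPM in non-neuronal libraries. With corn oil, Erc2 had 396, 447, 465 and 358 CPM in neuronal libraries, against 12.6, 8.90, 7.83 and 17.5 CPM in non-neuronal libraries. No library of one population reached the other, and the log2 differences for Erc2 were 5.01 (SE 0.69, adjusted p = 0.000331) and 5.13 (SE 0.30, adjusted p = 8.14e-07). Its paralog Erc1, which is expressed in many tissues, had log2 differences of 1.39 (SE 0.45, adjusted p = 0.0527) and 0.79 (SE 0.26, adjusted p = 0.0384), with overlap between populations under both treatments. Erc1 was called after the agonist without neuronal agonist library 4 (1.64) or non-neuronal agonist library 2 (1.70), and its corn oil call was lost without each library in turn except neuronal corn oil library 1 and non-neuronal corn oil library 3 (0.68 to 0.85). Ppfia2 (liprin-α2) reached 3.54 (SE 0.65, adjusted p = 0.00219) and 4.06 (SE 0.33, adjusted p = 4.49e-06), without overlap.

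RIM proteins bind Rab3, Munc13 and calcium channels. Rims2 separated the populations, Rims1 did not. After the agonist, Rims2 had 239, 267, 327 and 198 CPM in neuronal libraries, against 0, 2.07, 45.7 and 12.8 CPM in non-neuronal libraries. With corn oil, Rims2 had 216, 259.5, 268 and 219.5 CPM in neuronal libraries, against 5.88, 4.63, 46.4 and 9.28 CPM in non-neuronal libraries. The non-neuronal libraries 3 of both treatments stood above their groups but below every neuronal library, and the log2 differences were 4.01 (SE 1.01, adjusted p = 0.0149) and 3.84 (SE 0.62, adjusted p = 0.000598). Rims1 averaged 30.2 ± 10.6 CPM in neuronal and 28.97 ± 14.5 in non-neuronal nuclei after the agonist, and 30.3 ± 3.83 CPM in neuronal and 20.3 ± 18.5 in non-neuronal nuclei with corn oil. Its log2 difference was -0.055 (SE 0.74, adjusted p = 0.977) after the agonist, positive without neuronal agonist library 1 (0.12) or 3 (0.084), without non-neuronal agonist library 3 (0.26) and by library size alone (0.50), and 0.57 (SE 0.56, adjusted p = 0.507) with corn oil, where it was called without non-neuronal corn oil library 4 (1.42).

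The Rab3 branch, small GTPases of the vesicle surface and an effector, stood out less. Rab3c had log2 differences of 1.95 (SE 0.89, adjusted p = 0.179) and 2.10 (SE 0.67, adjusted p = 0.0347). One library weighed on the agonist value of Rab3c: the non-neuronal agonist libraries held 2.02, 109, 19.5 and 7.96 CPM, and without library 2 the log2 difference was 3.83 and called, as it was without both libraries above 30% mitochondrial counts (3.47, adjusted p = 0.00945). Its corn oil call was lost without each library in turn except non-neuronal corn oil library 4 (1.76 to 2.18), which held the highest non-neuronal value, 141 CPM. Rab3a, the main synaptic Rab3, was scarce, with log2 differences of 1.85 (SE 1.16, adjusted p = 0.351) and 0.84 (SE 1.25, adjusted p = 0.683). Rph3a encodes rabphilin, a Rab3 effector, and did not pass the filter on low counts in any comparison of 2 groups; it had 0, 0.910, 4.53 and 1.41 CPM in neuronal and 6.06, 2.07, 0 and 3.98 CPM in non-neuronal libraries after the agonist, and 0.535, 1.58, 0.251 and 0.806 CPM in neuronal and 0.280, 27.1, 0.280 and 0 CPM in non-neuronal corn oil libraries. Its highest value was thus in 1 non-neuronal library.

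Nsf, the ATPase that takes SNARE complexes apart in all cells, did not pass the test, with log2 differences of 0.41 (SE 0.62, adjusted p = 0.747) after the agonist and -0.14 (SE 0.40, adjusted p = 0.838) with corn oil; the second was positive by library size alone (0.15) and without neuronal corn oil library 4 (0.0036) or non-neuronal corn oil library 3 (0.27). Napb encodes β-SNAP, the brain-enriched partner of NSF, and had log2 differences of 0.16 (SE 0.59, adjusted p = 0.917) and 2.28 (SE 0.38, adjusted p = 0.000684); the agonist value was 1.85 (adjusted p = 0.0623) without both libraries above 30% mitochondrial counts, and turned negative without non-neuronal agonist library 3 (-0.095) or 4 (-0.17). Of the endocytosis genes, Dnm3 (dynamin 3) was called under both treatments, at log2 differences of 1.83 (SE 0.52, adjusted p = 0.0287) and 2.48 (SE 0.27, adjusted p = 3.45e-05). The agonist call for Dnm3 was lost without neuronal agonist library 2 or 4 or non-neuronal agonist library 1 or 2 (1.53 to 1.93), and at 1.24 without both libraries above 30% mitochondrial counts. Dnm1, the dynamin of synaptic vesicle retrieval, had 1.004 (SE 0.63, adjusted p = 0.351) and 1.49 (SE 0.42, adjusted p = 0.0191), the second lost without neuronal corn oil library 2 (1.43) or 3 (1.42). Amph (amphiphysin), which recruits dynamin, had 2.03 (SE 1.00, adjusted p = 0.221) and 2.53 (SE 0.43, adjusted p = 0.000808), without overlap in either.

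Slc17a6 encodes VGLUT2, which loads glutamate into vesicles. After the agonist, Slc17a6 had 0.258, 5.46, 16.2 and 16.9 CPM in neuronal libraries, against 0, 0, 0 and 27.2 CPM in non-neuronal libraries. With corn oil, Slc17a6 had 8.56, 25.3, 8.53 and 22.3 CPM in neuronal libraries, against 0.839, 1.07, 4.47 and 0 CPM in non-neuronal libraries. After the agonist, 3 non-neuronal libraries were at 0 and library 4 was above every neuronal library, so the log2 difference was 0.38 (SE 1.73, adjusted p = 0.931). Without library 4 the non-neuronal group had 0 counts, and Slc17a6 was called at a bound of at least 29.0-fold higher in neuronal nuclei, taking 3 counts over the group as the floor. Without both libraries above 30% mitochondrial counts it was -0.48, and without neuronal agonist library 4 or non-neuronal agonist library 1, 2 or 3 it lay between -0.040 and -0.019. With corn oil all neuronal libraries were above all non-neuronal ones, at 3.29 (SE 1.01, adjusted p = 0.0285), a call lost without neuronal corn oil library 2 or 4 or non-neuronal corn oil library 1 or 2 (3.05 to 3.14).

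The population differences after the agonist were also taken without both libraries above 30% mitochondrial counts, non-neuronal agonist libraries 1 and 2, which left 16 of 40 genes called higher and none lower, with a median log2 difference of 2.59 over the release genes and 0.11 over all genes. Rab3c was gained, and Dnm3, Sv2b (2.62) and Cplx1 were lost. Log2 differences also moved past 1.5-fold for Vamp1 (3.31), Unc13a (5.01), Unc13c (4.45) and Rims2 (3.15), all still called, and for Syt7 (3.06), Syt11 (2.59) and Cplx2 (1.86), which were not called with or without these libraries. Without neuronal agonist library 1 instead, 16 genes were called, and Vamp2 stood at -0.99, Syp at 1.76 and Rab3a at 0.84, none of them called.

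**Figure D2:**
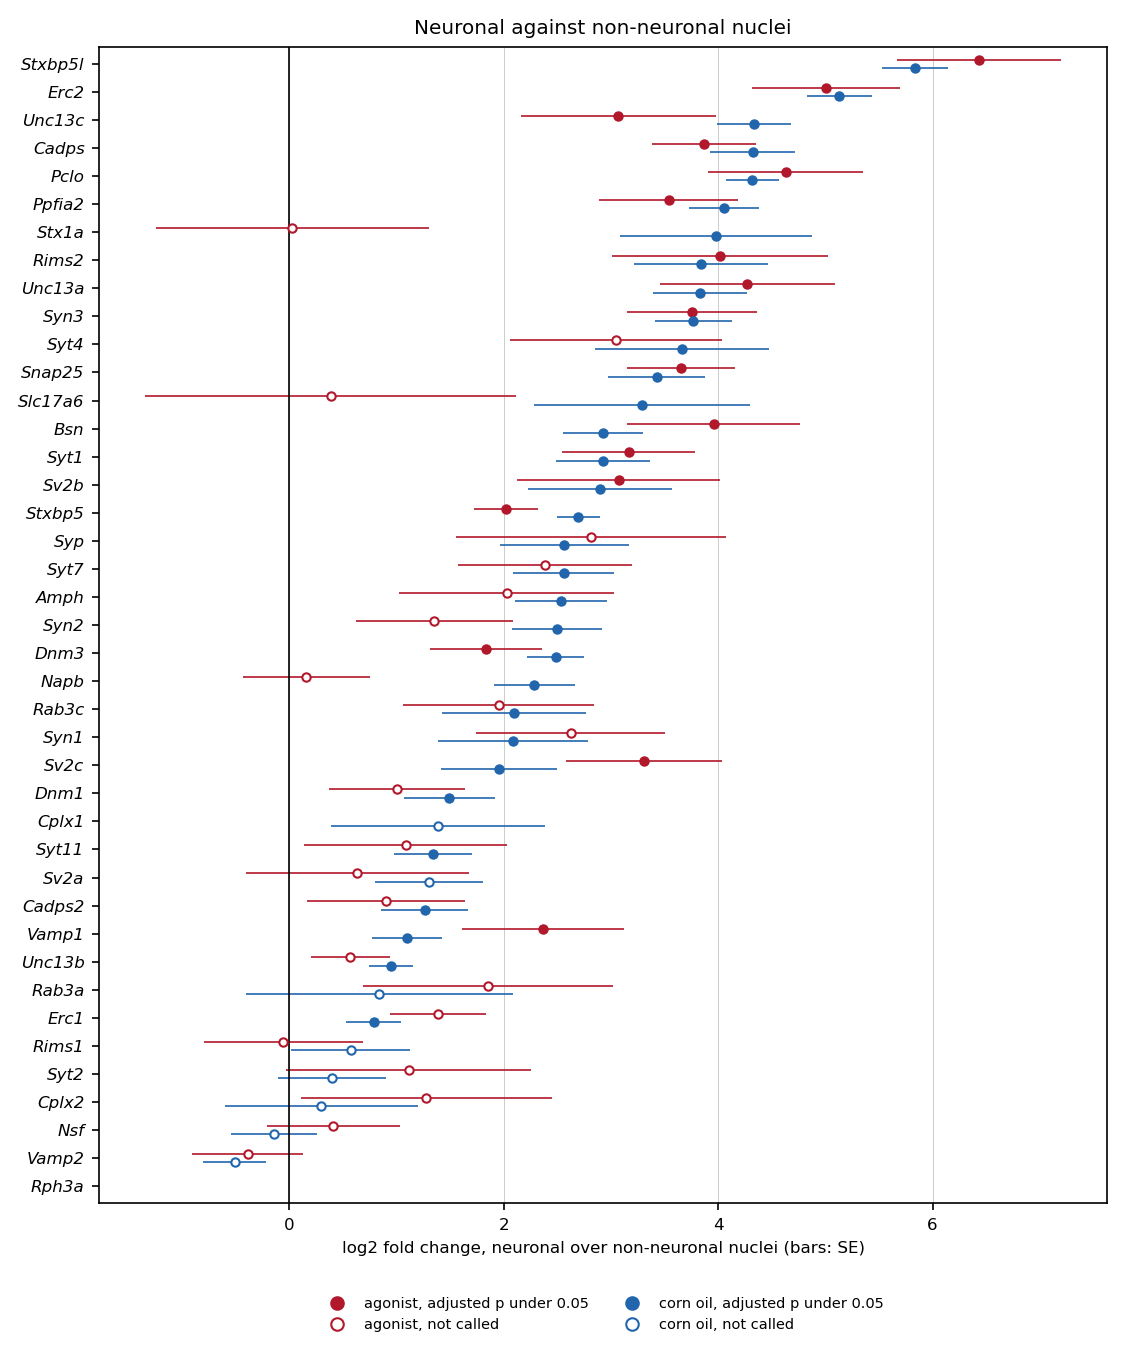
Log2 difference, neuronal minus non-neuronal, for each gene after the agonist and with corn oil; points are edgeR estimates, bars are SE, and filled points passed an adjusted p under 0.05. Stxbp5l and Erc2 lie farthest to the right in both comparisons while Vamp2 lies left of 0; Rph3a was not tested and Cplx1 after the agonist, a bound, is not drawn.

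To set the release genes against neuronal RNA in general, each library was also scaled to its summed counts over the 20 neuron markers, so that a value of 0 means that the RNA of a gene was divided between tagged and untagged nuclei in the same ratio as that of those markers. On this scale, 2 of 40 release genes were higher in neuronal nuclei and 15 lower after the agonist, and 2 higher and 19 lower with corn oil. Over all genes tested, 0.796% were higher and 79.7% lower after the agonist, and 0.589% and 88.7% with corn oil. The median log2 difference on this scale was -1.93 for the release genes and -4.28 for all genes after the agonist, and -1.30 and -3.99 with corn oil. The 41 genes summed to 3.03, 3.02, 2.97 and 2.95 times the neuron markers in the neuronal agonist libraries, against 12.6, 12.1, 5.29 and 6.42 times in the non-neuronal agonist libraries. With corn oil the ratio was 3.03, 2.93, 3.15 and 3.01 in neuronal libraries, against 4.93, 8.63, 7.03 and 5.10 in non-neuronal libraries. The 8 neuronal libraries thus lay within a narrow band, below all 8 non-neuronal ones.

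Stxbp5l was above the neuron markers under both treatments, at 2.45 (SE 1.00, adjusted p = 0.036) after the agonist and 1.94 (SE 0.52, adjusted p = 0.00317) with corn oil, although the agonist call held only with all libraries or without neuronal agonist library 1 or non-neuronal agonist library 2, and was otherwise lost (2.11 to 2.55). Erc2 was above them with corn oil, at 1.37 (SE 0.40, adjusted p = 0.00587), against 1.16 (SE 0.80, adjusted p = 0.191) after the agonist. Cplx1 was the other gene called higher after the agonist (adjusted p = 0.0225), a call lost without non-neuronal agonist library 3. The 4 most abundant genes that did not pass were Pclo, Snap25, Syn3 and Ppfia2 under both treatments. After the agonist they were at 0.55, -0.40, -0.31 and -0.27. With corn oil Pclo was at 0.41, Snap25 at -0.18 and Syn3 at 0.092, and Ppfia2 lay between 0.090 and 0.43 over 10 alternatives. Cadps, next in level, was at 0.40 with corn oil. After the agonist the signs of Snap25, Syn3 and Ppfia2 on this scale turned positive without non-neuronal agonist library 2 (0.20, 0.092 and 0.054), those of Syn3 without library 4 (0.077) and Ppfia2 without library 3 (0.061). With corn oil Pclo was called without non-neuronal corn oil library 2 (0.83), where Syn3 turned to -0.048, and Snap25 turned to 0.12 without library 4.

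The genes furthest below the neuron markers were Vamp2 at -4.58, Napb at -4.15, Stx1a at -4.10, Rims1 at -4.01, Nsf at -3.83 and Unc13b at -3.69 after the agonist. Also called lower there were Sv2a at -3.44, Dnm1 at -3.36, Cadps2 at -3.17, Syt11 at -3.13, Cplx2 at -3.06, Erc1 at -2.81, Syn2 at -2.43, Stxbp5 at -2.16 and Dnm3 at -1.999. With corn oil, those called lower were Vamp2 at -4.38, Nsf at -4.05, Cplx2 at -3.47, Syt2 at -3.43, Rab3a at -3.40, Erc1 at -3.16, Rims1 at -3.001, Unc13b at -2.91, Vamp1 at -2.86 and Cadps2 at -2.81. Smaller calls with corn oil were Sv2a at -2.67, Syt11 at -2.50, Dnm1 at -2.31, Sv2c at -1.83, Napb at -1.63, Syn2 at -1.47, Rab3c at -1.30, Dnm3 at -1.29 and Stxbp5 at -1.19. Of the 17 calls after the agonist 10 held without each library in turn, and of the 21 with corn oil 17 did. Those lost were, after the agonist, Stxbp5l and Cplx1 as above, Stx1a without neuronal agonist library 3 (-3.87) or non-neuronal agonist library 2 (-2.02), Syt11 without the same libraries (-3.02 and -0.88), Syn2 without neuronal agonist library 3 (-2.38), Sv2a without non-neuronal agonist library 4 (-2.32), and Cplx2 without any one neuronal agonist library or non-neuronal agonist library 1 (-3.41 to -1.46). With corn oil they were Syn2 and Rab3a without any neuronal corn oil library or non-neuronal corn oil library 2 (-1.54 to -0.75 and -3.73 to -1.33), Rab3a also without non-neuronal corn oil library 3 (-3.48), Rab3c without any neuronal corn oil library or non-neuronal corn oil library 4 (-1.38 to -0.34), and Sv2c without non-neuronal corn oil library 2 (-1.37). Without the libraries above 30% mitochondrial counts, 15 genes were called after the agonist, 1 higher and 14 lower, 2 of which were not called with all libraries, and the median over the release genes was -1.01, beside -3.68 over all genes. Napb then stood at -1.70 and was still called, Nsf at -2.75, Unc13b at -2.97, Erc1 at -2.14, Dnm1 at -2.09 and Stxbp5 at -1.41. Calls were lost for Stx1a (-2.39), Cplx2 (-1.79), Syt11 (-1.26) and Cplx1, while Stxbp5l was at 3.30 and Pclo and Snap25, not called, were at 1.55 and 0.14.

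**Figure D3:**
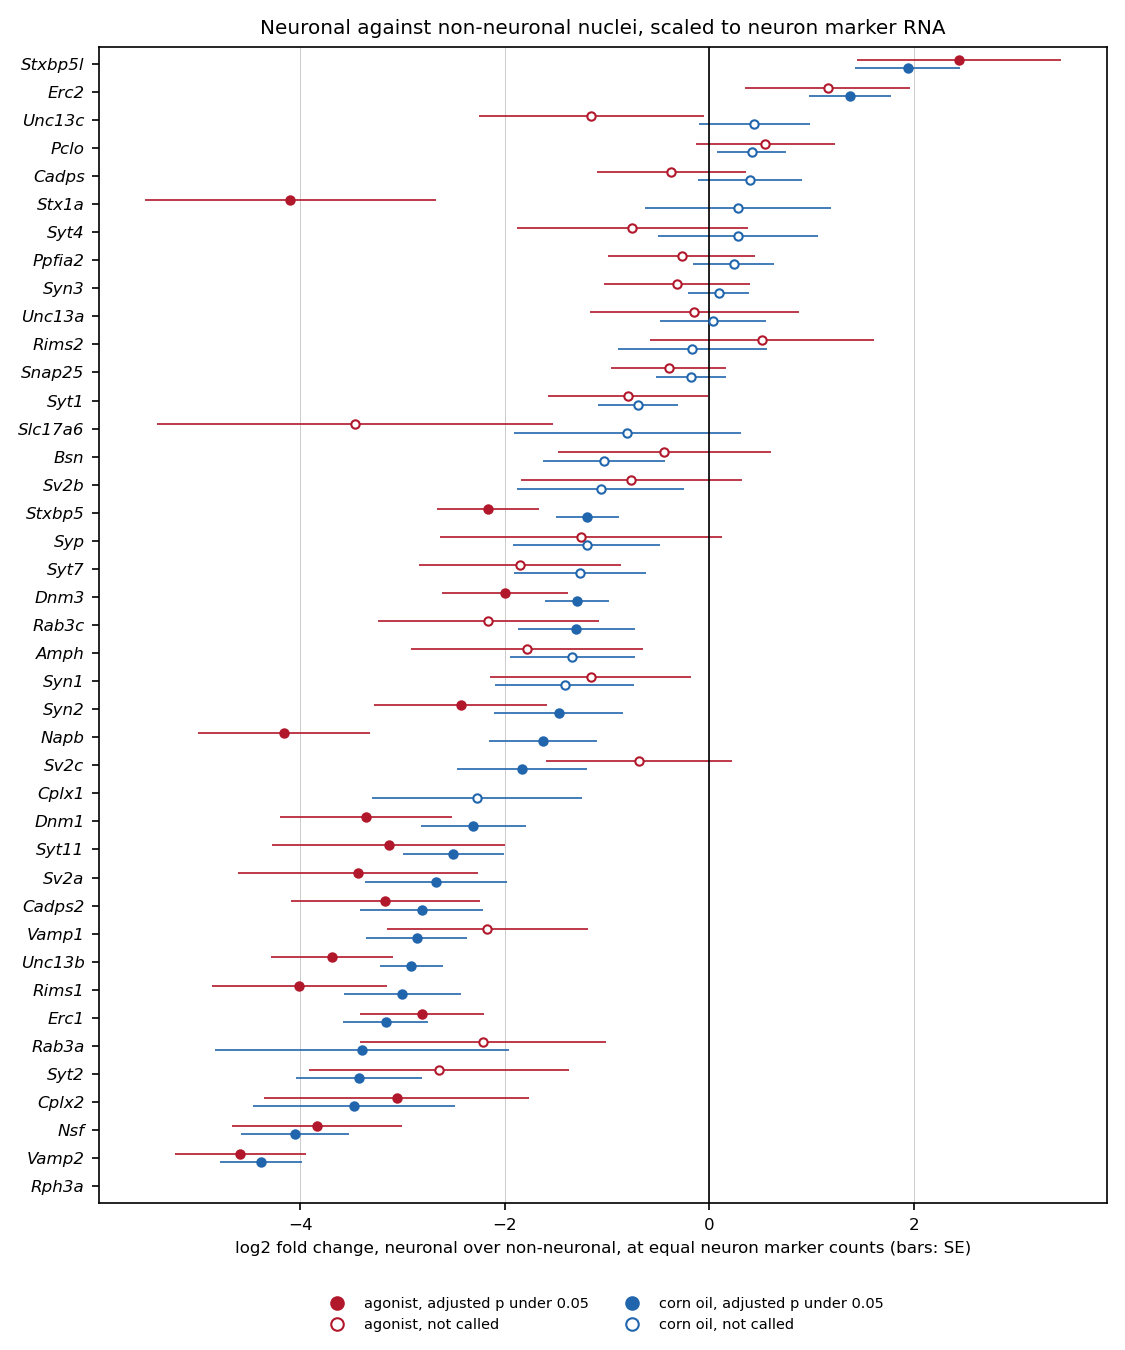
Log2 difference, neuronal minus non-neuronal, after each library was scaled to its 20 neuron markers; points are edgeR estimates, bars are SE, filled points passed an adjusted p under 0.05, and the line at 0 is the ratio of the neuron markers. Stxbp5l lies right of 0 under both treatments, Pclo, Snap25 and Syn3 lie near it, and Vamp2 and Nsf lie far to the left; Rph3a and, after the agonist, Cplx1 are not drawn.

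Within families of paralogs, the share of RNA held by each member was set side by side for the populations. Shares were computed per kb of merged exons within each library, as a description, and levels of different genes depend on the length assumed. Rims2 made up 85.6 ± 4.91% of Rims1 and Rims2 in neuronal and 18.1 ± 18.4% in non-neuronal agonist nuclei, and 84.8 ± 1.74% in neuronal and 34.6 ± 28.8% in non-neuronal corn oil nuclei (SD, n = 4 each). Erc2 made up 72.8 ± 4.57% of the ELKS pair in neuronal and 16.9 ± 15.6% in non-neuronal agonist nuclei, and 74.5 ± 2.35% in neuronal and 13.4 ± 6.14% in non-neuronal corn oil nuclei. In both families the neuronal range lay above the non-neuronal range under each treatment. Unc13b went the other way, with 33.6 ± 10.2% of the Munc13 genes in neuronal and 77.9 ± 19.4% in non-neuronal agonist nuclei, and 29.4 ± 5.24% in neuronal and 78.3 ± 2.48% in non-neuronal corn oil nuclei. Vamp2 took 52.1 ± 11.4% of the synaptobrevins in neuronal and 88.7 ± 13.5% in non-neuronal agonist nuclei, and 54.03 ± 7.87% in neuronal and 78.6 ± 5.53% in non-neuronal corn oil nuclei.

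In the tomosyn pair, Stxbp5l was 40.2 ± 1.87% of the pair in neuronal and 3.12 ± 2.89% in non-neuronal agonist nuclei, and 38.7 ± 3.68% in neuronal and 6.52 ± 2.01% in non-neuronal corn oil nuclei. Cadps held 79.9 ± 4.71% of the CAPS pair in neuronal and 43.6 ± 22.9% in non-neuronal agonist nuclei, and 69.3 ± 2.77% in neuronal and 24.5 ± 17.2% in non-neuronal corn oil nuclei. Syn3 was the largest synapsin in neuronal nuclei, with 55.5 ± 6.89% there and 34.2 ± 17.1% in non-neuronal nuclei after the agonist, and 64.4 ± 4.54% and 44.3 ± 21.4% with corn oil. When the longest transcript replaced merged exons as the length, the Dnm1 share of the dynamin pair in neuronal agonist nuclei was 38.1% instead of 61.6 ± 16.7%, and the Syn1 share of the synapsins 18.7% instead of 35.5 ± 8.83%. Syn3 then held 73.0% of the synapsins in neuronal agonist and 79.2% in neuronal corn oil nuclei, and Rims2 91.8% and 91.4% of its pair. Unc13b held 36.7% of the Munc13 genes in neuronal corn oil nuclei. These moved by more than their SD, and other shares moved as well.

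**Figure D4:**
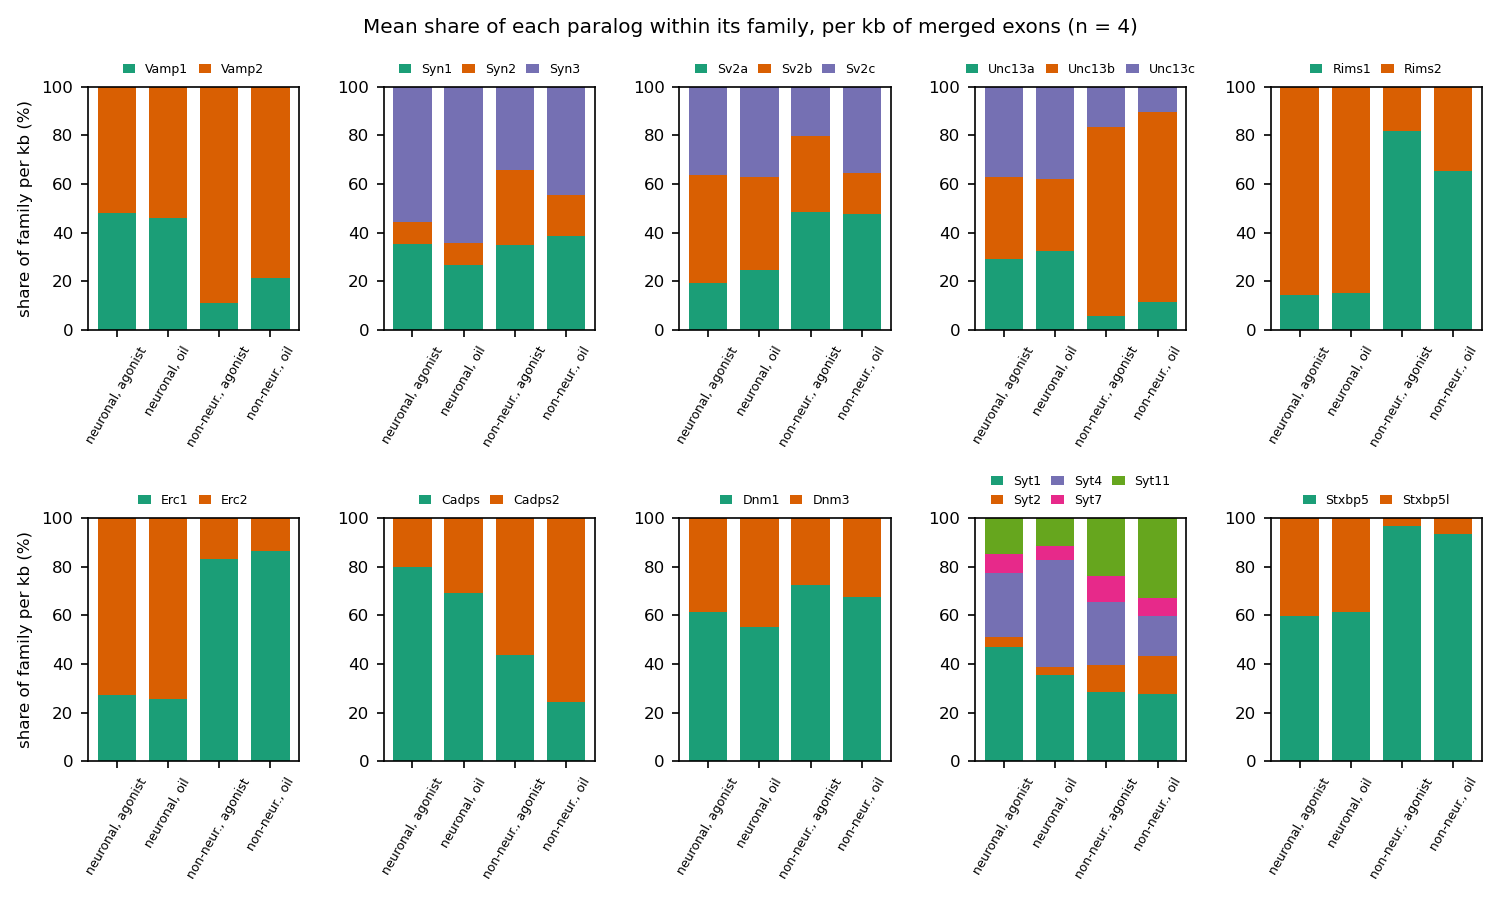
Mean share of each paralog in its family, per kb of merged exons, in the 4 groups (percent of the family's summed level, n = 4 libraries, stacked to 100); the spread is given in the text for the families described. Rims2 and Erc2 fill most of their bars in both neuronal groups and a smaller part in the non-neuronal groups. Unc13b and Vamp2 take a larger share in the non-neuronal groups than in the neuronal groups, where Vamp2 still takes slightly more than Vamp1.

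Other genes of the pathway were taken from lists by function. Of 29 tested further release genes 9 were higher and 1 lower in neuronal nuclei after the agonist, and 15 higher and none lower with corn oil. Among all genes tested, 6.67% were higher and 6.97% lower after the agonist, and 11.8% higher and 13.5% lower with corn oil. Ppfia4, another liprin, had 0 counts in the non-neuronal agonist libraries and was at least 96.0-fold higher in neuronal ones. Syt10, a further synaptotagmin, had 174 counts in the neuronal and 3 in the non-neuronal agonist libraries, a ratio of 51.4 (95% exact interval 17.3 to 252, counting error only). Next in size after the agonist were the liprin Ppfia3 at 4.52 and Rimbp2, which ties RIM to calcium channels, at 4.29, and the 1 lower gene was Sh3gl2 (endophilin A1) at -3.23. With corn oil the largest log2 differences were those of Syngr3 (synaptogyrin 3) at 4.03, Rimbp2 at 3.99, Snap91 (the clathrin adaptor AP180) at 3.86 and Syt9 at 3.73.

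Of the broadly expressed fusion and recycling genes, 4 of 24 were higher and none lower after the agonist, and 5 of 25 higher and 4 lower with corn oil, with median log2 differences of 0.10 and -0.059. The shares over all genes were 6.67% higher and 6.97% lower after the agonist, and 11.8% and 13.5% with corn oil. Their medians were -0.15 and -0.11. After the agonist the 4 were Bin1 at 4.67, Stx2 at 3.28, Rab27a at 2.41 and Stx3 at 1.43. With corn oil the largest were Bin1 at 3.67, Rab27a at 2.76, Vamp3 at 2.14 and Stx3 at 1.83, and lower in neuronal nuclei were Syngr2 at -3.78, Vamp8 at -3.03, Stxbp3 at -1.27 and Sypl at -1.18, paralogs of synaptogyrin, synaptobrevin, Munc18 and synaptophysin.

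Genes of dense-core vesicles, which store peptides, were higher in 7 of 13 after the agonist and in 8 of 13 with corn oil, where 1 was lower. Beside these stand 6.67% of all genes higher after the agonist, and 11.8% higher and 13.5% lower with corn oil. After the agonist Scg5, a helper of prohormone convertase 2, had 213 counts in neuronal and 1 in non-neuronal libraries, a ratio of 189 (95% exact interval 33.5 to 7492, counting error only). Next were Ptprn at 5.46, the prohormone convertase Pcsk1 at 5.22 and chromogranin A (Chga) at 4.67. With corn oil they were Ptprn at 4.60, Scg5 at 3.57, Pcsk1 at 3.30 and Pcsk2 at 3.21, while carboxypeptidase E (Cpe) was lower at -1.31. Among vesicular transporters other than Slc17a6, the acetylcholine transporter Slc18a3 and the monoamine transporter Slc18a2 were called higher in both comparisons. Slc18a2 had log2 differences of 2.40 after the agonist and 2.003 with corn oil, and Slc18a3 of 2.91 with corn oil; after the agonist Slc18a3 had 181 counts in neuronal and 3 in non-neuronal libraries, a ratio of 53.5 (95% exact interval 18.01 to 262). Slc17a9, the vesicular nucleotide transporter, was lower with corn oil, with 2 counts in neuronal and 438 in non-neuronal libraries, a ratio of 0.00414 (95% exact interval 0.00050 to 0.0151).

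The agonist did not move any of the 41 genes past the test in neuronal nuclei. None of the 40 tested was called, and none of the 14182 genes tested was (0%), with edgeR; 711 of all genes (5.01%) and 4 of the 40 had an unadjusted p under 0.05. DESeq2 called 24 genes, an unfiltered fit 152 and limma-voom 0, none of them among the 41. The median log2 change, agonist minus corn oil, was 0.10 over the release genes and 0.077 over all genes, and library size scaling moved the second to -0.027. Both groups separated without overlap for 2 of the 40, both lower after the agonist, where 2.17% of all genes did so.

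The 4 genes with an unadjusted p under 0.05 went both ways. Syt4 had 26.1, 137, 114 and 107 CPM in agonist and 165, 182, 217 and 153 CPM in corn oil neuronal libraries. Every agonist library was below every corn oil one, library 1 by the most, and the log2 change was -0.90 (SE 0.40, adjusted p = 0.903), or -0.59 without library 1. Cadps2 had 72.01, 66.4, 101 and 69.2 CPM in agonist and 126, 115, 119.7 and 129.5 CPM in corn oil neuronal libraries, again without overlap, at -0.67 (SE 0.25, adjusted p = 0.903), or -0.64 without library 1. Vamp1 had 356, 262, 162 and 120.3 CPM in agonist and 124, 134, 139 and 90.8 CPM in corn oil neuronal libraries. Its agonist libraries 1, 2 and 3 were above all corn oil ones and library 4 within them, at 0.88 (SE 0.32, adjusted p = 0.903), or 0.57 without library 1. Rab3a had 50.1, 4.55, 10.4 and 12.1 CPM in agonist and 3.21, 2.37, 8.28 and 6.99 CPM in corn oil neuronal libraries, at 1.89 (SE 0.79, adjusted p = 0.903), and 0.78 without library 1, which alone was high.

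The most abundant genes showed small fitted changes in neuronal nuclei, with Pclo at 0.10 (SE 0.24, adjusted p = 0.979), Stxbp5 at -0.044 (SE 0.18, adjusted p = 0.983), Snap25 at 0.38 (SE 0.25, adjusted p = 0.905) and Syn3 at -0.32 (SE 0.17, adjusted p = 0.903). By library size alone Pclo turned to -0.061, and without neuronal agonist library 1 it was -0.18; Stxbp5 turned positive without neuronal agonist library 2 (0.034) or neuronal corn oil library 4 (0.10). Syp and Vamp2 had larger values that shrank or changed sign without that 1 library. Syp stood at 1.01 and at -0.14 without it, and Vamp2 at 0.90 and 0.21. Over neuronal agonist libraries 2 to 4, Syp averaged 38.4 ± 9.14 CPM and Vamp2 62.5 ± 10.2 CPM (SD, n = 3), beside 42.1 ± 11.05 and 53.8 ± 8.70 CPM with corn oil.

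In non-neuronal nuclei none of the 36 release genes tested was called either, and edgeR called 2 of 14846 genes (0.0135%), neither of them in the set. An unadjusted p under 0.05 was found for 4.82% of all genes and for 1 of the 36, Napb. Napb had 167, 254, 64.2 and 27.4 CPM in agonist and 13.4, 47.00, 26.8 and 45.1 CPM in corn oil non-neuronal libraries. Libraries 1, 2 and 3 of the agonist group were above all corn oil ones and library 4 among them, at a log2 change of 2.06 (SE 0.67, adjusted p = 0.954). Libraries 1 and 2, the highest, were those above 30% mitochondrial counts, and without them the change was 0.44; their part in the value was not tested. The other largest fitted changes were Sv2c at -1.28 (SE 0.97, adjusted p = 0.971), Syn2 at 0.93 (SE 0.91, adjusted p = 0.98) and Unc13a at -0.87 (SE 1.04, adjusted p = 0.981), with overlapping groups; without libraries 1 and 2, Syn2 was at 1.52 and Unc13a at -1.54.

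Stxbp5 was the 1 release gene tested whose agonist libraries all lay above the corn oil ones in non-neuronal nuclei, where 1.13% of all genes did so. It had 270.1, 233, 236 and 204 CPM in agonist and 182, 165, 150.4 and 178 CPM in corn oil libraries, a log2 change of 0.56 (SE 0.32, adjusted p = 0.954). Snap25 had a fitted log2 change of 0.090 (SE 0.64, adjusted p = 0.993), or -0.40 by library size alone, Pclo of -0.28 (SE 0.65, adjusted p = 0.992) and Syn3 of -0.36 (SE 0.71, adjusted p = 0.992). Their signs were not stable: Snap25 turned negative without non-neuronal agonist library 2 or 3 or non-neuronal corn oil library 2 or 3 (-0.26 to -0.11), Pclo turned to 0.10 without non-neuronal agonist library 4, and Syn3 to 0.0027 without non-neuronal corn oil library 4. Cplx1, too low to be tested there, was at least 12.6-fold lower with 0 counts in agonist and 38 in corn oil libraries, of which the 4 corn oil libraries held 0.280, 3.56, 0.280 and 6.70 CPM. That bound pools the counts of a group and leaves out the spread between libraries. It was 5.54-fold without non-neuronal corn oil library 4. The neuron markers Rbfox3 and Nrsn1 also had 0 counts in these agonist libraries, against 33 and 38 with corn oil. Summed neuron markers overlapped, at 113 to 364 CPM after the agonist and 159.5 to 399 CPM with corn oil. The median log2 change was 0.10 over the release genes and 0.13 over all genes, and -0.32 and -0.28 by library size alone.

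Whether the response differed between populations was tested across all 16 libraries. None of the 41 genes and none of the 18566 genes tested was called by edgeR (0%), 7.99% of all genes and 3 of the 41 had an unadjusted p under 0.05, and DESeq2 called 150 genes, none of them in the set. The 3 were Cplx1 (adjusted p = 0.45), Napb at a log2 difference of -2.004 (SE 0.73, adjusted p = 0.498) or -0.48 without both libraries above 30% mitochondrial counts, and Stx1a at -3.82 (SE 1.66, adjusted p = 0.572), or -2.96 without them, where negative values mean a lower response in neuronal nuclei. The other largest were Slc17a6 at -2.79, whose sign turned positive without non-neuronal agonist library 4, where the non-neuronal agonist group had 0 counts and no size is given, and Rph3a at 2.20, which turned to -2.79 without non-neuronal corn oil library 2. Without both libraries above 30% mitochondrial counts they were -3.81 for Slc17a6 and 2.82 for Rph3a. For the most abundant genes the differences were 0.42 (SE 0.78, adjusted p = 0.949) for Pclo, -0.56 (SE 0.32, adjusted p = 0.694) for Stxbp5, 0.34 (SE 0.66, adjusted p = 0.952) for Snap25 and 0.11 (SE 0.67, adjusted p = 0.992) for Syn3. Snap25 turned to -0.066 without neuronal agonist library 1 and to -0.48 without non-neuronal corn oil library 4; Syn3 turned negative without neuronal agonist library 1, non-neuronal agonist library 1 or 3, or non-neuronal corn oil library 4 (-0.36 to -0.088).

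**Figure D5:**
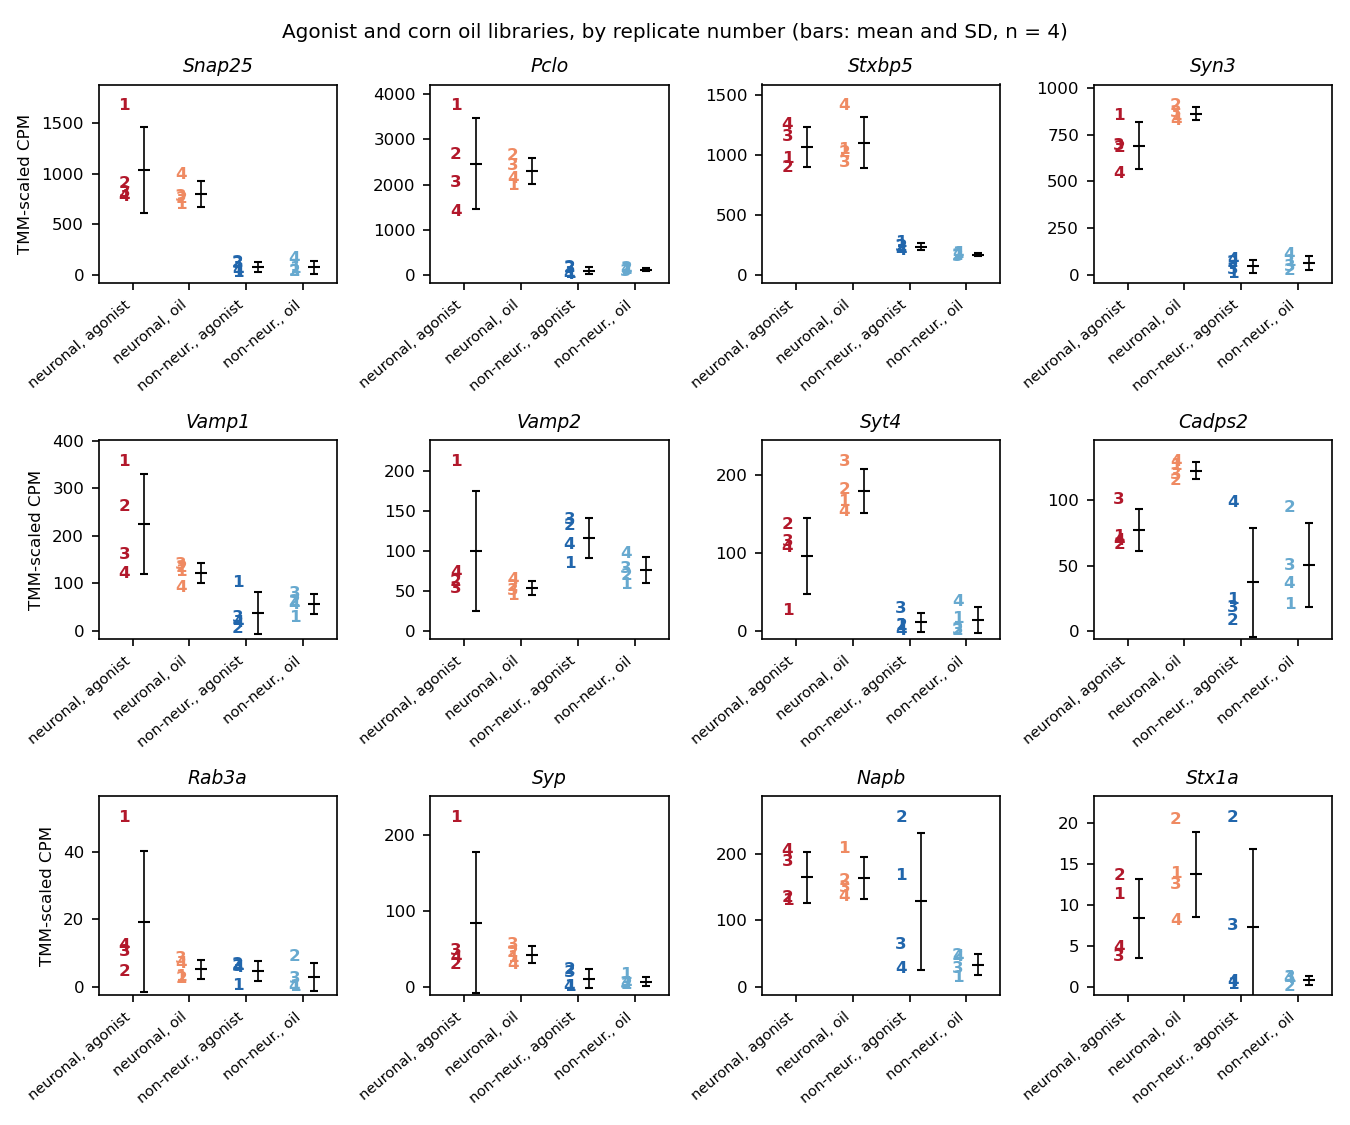
TMM-scaled CPM of 12 genes in the agonist and corn oil libraries of each population; digits are library numbers and the bars beside them are mean and SD (n = 4), ending at the axis where they would pass below it. Neuronal agonist library 1 is the highest of its group for Snap25, Pclo, Syn3, Vamp1, Vamp2, Rab3a and Syp and the lowest for Syt4 and Napb. Napb and Stx1a spread widely in non-neuronal agonist nuclei.

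Promoter sequence was read from RefSeq windows of 250 bases before to 50 after the transcription start on GRCm38.p6, in which 35 of the 41 genes had 45 windows. Here 2 short motifs were searched on both strands, the letters TTCAGCACC, part of the RE1 element bound by REST, a repressor of neuronal genes outside neurons, and GCGTG, the core of the site that AhR binds with its partner. TTCAGCACC was found in 2 of the 45 windows (4.44%), against 0.371% of all 32851 windows, in Syn1 and in Unc13a. Those promoters are shown because they hold that motif, in capitals, beside genes that were higher in neuronal nuclei; Syn1 lies at chrX:20920869-20921168, - strand and Unc13a, where the motif reads on the other strand, at chr8:71671708-71672007, - strand.
Syn1: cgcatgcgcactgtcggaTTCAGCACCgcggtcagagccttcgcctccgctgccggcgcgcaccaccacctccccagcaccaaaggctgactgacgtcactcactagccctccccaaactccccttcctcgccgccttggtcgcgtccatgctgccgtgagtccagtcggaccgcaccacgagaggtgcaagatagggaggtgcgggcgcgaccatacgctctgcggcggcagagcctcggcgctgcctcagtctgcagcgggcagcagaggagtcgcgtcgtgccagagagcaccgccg
Unc13a: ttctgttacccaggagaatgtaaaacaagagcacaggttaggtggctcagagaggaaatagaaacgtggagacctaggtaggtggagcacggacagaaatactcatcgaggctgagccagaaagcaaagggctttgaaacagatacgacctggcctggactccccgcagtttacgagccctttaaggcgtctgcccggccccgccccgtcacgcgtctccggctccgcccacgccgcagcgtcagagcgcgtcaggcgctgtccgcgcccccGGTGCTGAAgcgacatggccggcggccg
GCGTG was found in 25 of the 45 windows (55.6%), in 24 of the 35 genes, against 32.4% of all windows, and the median GC content was 61% in the 45 windows and 52.7% in all. Pclo (chr5:14514668-14514967, + strand), with the most counts, and Vamp1 (chr6:125215331-125215630, + strand), with the lowest unadjusted p in the neuronal agonist response, are shown with GCGTG or its reverse complement in capitals. Neither gene was called after the agonist.
Pclo: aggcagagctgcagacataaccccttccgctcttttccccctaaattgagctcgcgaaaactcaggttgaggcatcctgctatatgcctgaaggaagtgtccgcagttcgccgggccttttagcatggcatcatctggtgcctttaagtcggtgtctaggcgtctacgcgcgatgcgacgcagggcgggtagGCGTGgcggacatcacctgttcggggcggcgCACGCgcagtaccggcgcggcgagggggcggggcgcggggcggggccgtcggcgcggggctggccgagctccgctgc
Vamp1: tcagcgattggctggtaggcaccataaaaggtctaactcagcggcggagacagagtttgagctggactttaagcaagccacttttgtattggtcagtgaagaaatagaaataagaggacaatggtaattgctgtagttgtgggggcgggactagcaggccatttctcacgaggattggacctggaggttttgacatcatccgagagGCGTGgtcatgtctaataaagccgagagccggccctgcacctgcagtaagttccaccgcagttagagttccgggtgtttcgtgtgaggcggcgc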

How the data were processed

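Nuclear RNA was measured in 16 libraries, 4 per group. The deposited table holds expected counts, made by the authors with RSEM 1.3.0 and STAR 2.5.2 on GRCm38, per the submitters' processing notes; whether strand was used is not given in the sources used here, so reads of overlapping antisense genes cannot be told apart. Libraries were made from amplified cDNA, per the labels' protocols, so PCR copies may be counted more than once, and intervals cover counting error only. Fold bounds pool the counts of a group and leave out the spread between its libraries. Symbols, coordinates and exon lengths came from GENCODE M21, which named 51633 of 51912 IDs.

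Expected counts were rounded to whole numbers. Genes were kept by filterByExpr (minimum count 10, minimum total 15), scaled by TMM and tested with edgeR 4.0.16 in R 4.3.3 (robust quasi-likelihood F-test), on the 8 libraries of each comparison or all 16 for the difference of responses. P-values were adjusted by Benjamini-Hochberg over all genes tested, and called under 0.05. Alternatives used DESeq2 1.42.0, limma-voom 3.58.1, other scalings and filters, all groups in 1 fit, left-out libraries and a replicate block. Fits were tested on simulated data. Differences between replicates exceeded sampling noise in every pair of a group.

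Log2 differences between populations are named for every gene tested. For agonist responses and their difference they are named for genes at an unadjusted p under 0.05, the 4 most abundant and the 4 largest; relative to neuron markers, for genes called and the 4 most abundant not called; of the other lists, up to 4 called genes in each direction. The genes, lists and tests were chosen with earlier results of these data known.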

Additional observations from a re-analysis of the deposited data

Results flagged for a closer look

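In 20 of 164 combinations of a gene and a group, 1 library lay far from the other 3 by Dixon's gap test at the 95% level, 16 of them as the highest. For normally distributed values, chance flags about 1 in 20 groups. Whether these CPM values are so distributed was not tested, so 20 of 164 cannot be read against that rate. Of these, 8 were in neuronal agonist nuclei, 1 in neuronal corn oil nuclei, 5 in non-neuronal agonist nuclei and 6 in non-neuronal corn oil nuclei.

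Neuronal agonist library 1 was far above its group for 5 genes. It held 1671 CPM of Snap25, with 905 next, 212 of Vamp2, with 72.8 next, and 79.2 of Syt7, with 43.7 next. It also held 223 CPM of Syp, with 47.4 next, and 50.1 of Rab3a, with 12.1 next. Neuronal agonist library 3 was low for Sv2b at 49.5 CPM and Cadps at 426 CPM, and high for Cadps2 at 101 CPM. Among neuronal corn oil libraries, library 4 was high for Rab3c at 241 CPM.

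In non-neuronal agonist nuclei, library 2 was high for Syt7 at 15.3 CPM, Syt11 at 83.2 CPM and Rab3c at 109 CPM. Library 4 of that group held all of its Slc17a6, at 27.2 CPM, and library 1 was low for Rab3a at 0.337 CPM. In non-neuronal corn oil nuclei, library 4 was high for Syn1 at 67.03 CPM and Rab3c at 141 CPM, library 1 for Syp at 16.5 CPM, library 2 for Rph3a at 27.1 CPM and library 3 for Rims2 at 46.4 CPM. Library 2 was low for Stx1a, at 0 CPM, with 1.03 next. Summed neuron markers in that group were 260.2, 159.5, 192 and 399 CPM for libraries 1 to 4, highest in library 4; their part in these values was not tested.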

How the results depend on the processing

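The count of release genes called higher in neuronal nuclei kept its direction in each alternative tried. It lay between 16 and 25 after the agonist and between 23 and 33 with corn oil under other scalings, filters, tools and sample sets, and at 14 to 19 and 25 to 31 when 1 library was left out. Relative to neuron markers the range without 1 library was 12 to 17 and 18 to 24. No release gene was called in an agonist response or in its difference under any alternative. Cplx1 after the agonist was not called without the filter or without the libraries above 30% mitochondrial counts, and Vamp1 was not called with median-ratio scaling, a minimum count of 30 or DESeq2; the causes of these and the changes below were not tested.

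Counts over all genes moved more. After the agonist, 3324 genes were called between populations without the filter, 4365 with DESeq2 and 4590 with all 4 groups in 1 fit, and with corn oil 6700 with DESeq2, beside 1918 and 3876. In the neuronal response 152 were called without the filter and 24 with DESeq2. In the non-neuronal response, beside 2, there were 0 by library size alone and with limma-voom, 1 with a minimum count of 30, 1 without the libraries above 30% mitochondrial counts, 11 in 1 fit of all groups, 88 without the filter, 140 with DESeq2 and 0 to 2 without 1 library. The difference of responses gave 110 without the filter, 150 with DESeq2, 7 without the libraries above 30% and 0 to 9 without 1 library.

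Log2 values that changed sign were small or rested on few libraries. By library size alone they were Vamp2 (0.10) and Rims1 (0.50) between populations after the agonist, Nsf (0.15) with corn oil, and Pclo (-0.061) and Snap25 (-0.40) in the neuronal and non-neuronal responses. Median-ratio scaling turned Stx1a after the agonist (-0.013), Rims1 turned without the filter (0.036) and without mitochondrial genes (0.0011), and limma-voom turned Rph3a in the difference (-0.65). Without the libraries above 30%, Slc17a6 after the agonist was -0.48, Syn3 in the difference -0.13 and Snap25 relative to neuron markers 0.14; a median-of-ratios scaling to those markers gave 0.088 for Snap25 with corn oil.

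Leaving out 1 library at a time gave these ranges for genes whose sign changed. Between populations after the agonist, they were -0.38 to 1.46 for Stx1a, -0.29 to 0.26 for Rims1, -0.040 to 8.09 for Slc17a6 and -0.17 to 0.73 for Napb, and with corn oil -0.38 to 0.27 for Nsf and -0.048 to 1.07 for Cplx2. In the neuronal response they were -0.18 to 0.29 for Pclo, -0.14 to 1.29 for Syp and -0.14 to 0.10 for Stxbp5, and in the non-neuronal response -0.26 to 0.78 for Snap25, -0.78 to 0.10 for Pclo and -0.83 to 0.0027 for Syn3. In the difference they were -0.48 to 0.58 for Snap25, -0.36 to 0.58 for Syn3, -4.21 to 4.89 for Slc17a6 and -2.79 to 2.85 for Rph3a. The upper ends for Slc17a6 were fitted against a group at 0 counts and depend on the prior count, so they are not measured sizes. Relative to neuron markers they were -0.61 to 0.20, -0.63 to 0.092 and -0.60 to 0.061 for Snap25, Syn3 and Ppfia2 after the agonist, and -0.048 to 0.19 and -0.37 to 0.12 for Syn3 and Snap25 with corn oil.

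The groups share replicate numbers. Deviations of same-numbered libraries from their group means correlated at -0.0084 to 0.077 between populations under 1 treatment. Between treatments within a population they correlated at -0.10 to 0.19. The numbers were not read as pairs, but these correlations cannot tell whether neuronal and non-neuronal libraries of a number came from the same mice. With the number as a replicate block, 11 genes were called relative to neuron markers after the agonist, 1 higher and 10 lower, and 17 with corn oil, and the median log2 difference of the release genes after the agonist was -0.85 in place of -1.93. Under the replicate block, Syn3 (0.21) and Ppfia2 (0.086) changed sign there after the agonist, and Slc17a6 (0.21) and Rph3a (-1.15) in the difference.

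Depth limits the scarce genes most. In the non-neuronal agonist libraries Cplx1 had 0 counts, and Stx1a, Slc17a6 and Rab3a rested on few counts in 1 or more libraries.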
